A study of Drosophila melanogaster with 3 samples.

Results

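The 179 protein-coding genes of Drosophila melanogaster named as odorant, gustatory or ionotropic receptors were almost free of peaks of tagged Pleiohomeotic-like (Phol) in embryos. The genes were chosen by symbol, as Or, Gr or Ir followed by a number and letters, and comprise 59 Or, 60 Gr and 60 Ir genes among the 13945 protein-coding genes on the 6 main chromosome arms. Another 6 symbols of this pattern are annotated as pseudogenes and were left out, and Orco, the odorant co-receptor gene, does not carry such a symbol and is described separately. The samples are 3 biological replicates of a single group, entire embryos, 0 to 16 hours old and of both sexes mixed, from 1 transgenic line that stably carries Phol fused at its C terminus to green fluorescent protein. Anti-GFP antibody pulled down the tagged protein with its DNA for sequencing (ChIP-seq), and no group without the fusion was analysed here. Each replicate has a list of 30000 peaks, the pooled reads gave a further list of 30000, and the 10264 strongest peaks of the pooled list are those that passed the authors' test of reproducibility, called the reproducible list here. The labels call the replicates biological without saying whether the embryos were collected separately, so an SD covers the spread between these samples only. With a single group, no test between conditions exists, and members are described by counts beside the same counts over all protein-coding genes. In whole embryos, a site held in few cells and a site held weakly in many cannot be told apart.

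Chemoreceptors are membrane proteins of sensory neurons. Odorant receptors form ion channels together with the co-receptor Orco, gustatory receptors sense sugars, bitter compounds and carbon dioxide, and ionotropic receptors descend from glutamate receptors and sense acids, amines, temperature and humidity with the co-receptors Ir8a, Ir25a and Ir76b. Each receptor gene is typically expressed in a small set of neurons, and many lie in tandem arrays. Phol binds DNA through zinc fingers and is a paralog of the Polycomb group protein Pleiohomeotic (Pho), whose site has the core GCCAT.

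At the genes with a reproducible peak, the summit mostly lay beside the start of another gene. The first sequence runs from the first base upstream of the start of Gr63a, which encodes a subunit of the carbon dioxide receptor and is read leftwards, across the start of its divergent neighbour Lamtor4, a subunit of the Ragulator complex on lysosomes that is read rightwards from base 3896900. It is shown because it holds the whole interval between these starts. Capitals mark GCCAT on either strand and Motif 1 (GGTCACAC, the site of the promoter factor M1BP). The second covers 101 bp centred on the summit upstream of Ir67c and holds no GCCAT. The third is a stretch downstream of the start shared by LSm-4 and CG17768, at the summit assigned to Ir31a. There ATGGC, the reverse reading of GCCAT, lies 3 bp from the summit. All are read on the plus strand of the RefSeq release 6 assembly.
Gr63a to Lamtor4, chr3L:3896604-3896903: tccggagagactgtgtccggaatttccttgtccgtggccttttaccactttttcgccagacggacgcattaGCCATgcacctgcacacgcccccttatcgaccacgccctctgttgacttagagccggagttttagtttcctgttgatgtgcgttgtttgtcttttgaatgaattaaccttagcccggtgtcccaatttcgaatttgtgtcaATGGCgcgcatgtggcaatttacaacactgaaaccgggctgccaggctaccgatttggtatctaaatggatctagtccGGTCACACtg
Ir67c summit, chr3L:10434350-10434450: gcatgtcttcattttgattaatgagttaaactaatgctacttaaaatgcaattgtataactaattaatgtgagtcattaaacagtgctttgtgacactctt
Ir31a and LSm-4 summit, chr2L:10405076-10405104: gagtgaatgaagtgtATGGCtttacactc

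In the Gr63a interval, the summit at base 3896862 lay 259 bp upstream of Gr63a and 38 bp upstream of Lamtor4. On the side of Gr63a, the base nearest to the summit was 183 bp away for the GCCAT core and 42 bp away for its reverse reading. On the other side, Motif 1 began 32 bp from the summit and spanned the start of Lamtor4. The extended site GCCATNTT, in which N is any base, was within 50 bp of 0 of the 4 summits at receptor genes, against 6.63% of all 10264 reproducible summits. GCCAT was within 50 bp of 2 of the 4, against 19.6%. A count over 4 summits is a description only. The summit at Ir67c was poor in G and C, with 28.7% in 101 bp against a median of 31.7% over the reproducible summits, while that at Gr63a had 52.5%.

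Of the 179 receptor genes, 4 had a reproducible summit within 500 bp of an annotated start (2.23%, exact Clopper-Pearson 95% interval 0.612 to 5.62), against 40.8% of all protein-coding genes. The 4 genes were Gr63a, Ir60e, Ir67c and Ir31a. By family the count was 0 of 59 Or genes (exact interval 0 to 6.06), where the limit of 3 counts allows a share of up to 5.08%. It was 1 of 60 Gr genes (1.67%, interval 0.0422 to 8.94) and 3 of 60 Ir genes (5%, interval 1.04 to 13.9). The intervals of the families overlapped, the difference between them was not tested, and every family lay far below the share of all genes. The intervals cover counting error only, and they treat neighbouring genes as independent.

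No receptor gene held a reproducible summit inside its transcribed span. The count was 0 of 179 genes (exact interval 0 to 2.04), where the limit of 3 counts allows a share of up to 1.68%, against 20.4% of all protein-coding genes. Receptor genes are short, with a median length of 1462 bp for Or, 1397 bp for Gr and 1908 bp for Ir genes, against 2166 bp for all. Counted per length, the 467 kb within receptor genes held 0 reproducible summits, against 6.02 per 100 kb within all protein-coding genes. The longest of them, Ir41a, spans 104437 bp, and its start lay 88331 bp from the nearest reproducible summit.

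The replicates gave the same genes. In the strongest 10264 peaks of each replicate, replicate 1 had 5 receptor genes with a start summit, against 43.0% of all genes. Replicate 2 had 4, against 41.5%, and replicate 3 had 4, against 37.0%. The mean share was 2.42% ± 0.323 (SD, n = 3) for receptor genes and 40.5% ± 3.13 (SD, n = 3) for all genes. The difference between receptor genes and all genes was thus many times the spread between replicates. Gr63a, Ir60e, Ir67c and Ir31a were found in the strongest peaks of all 3 replicates, where 34.2% of all genes were. The additional gene of replicate 1 was Gr97a. No Or gene was found in any replicate at this list length.

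**Figure D1:**
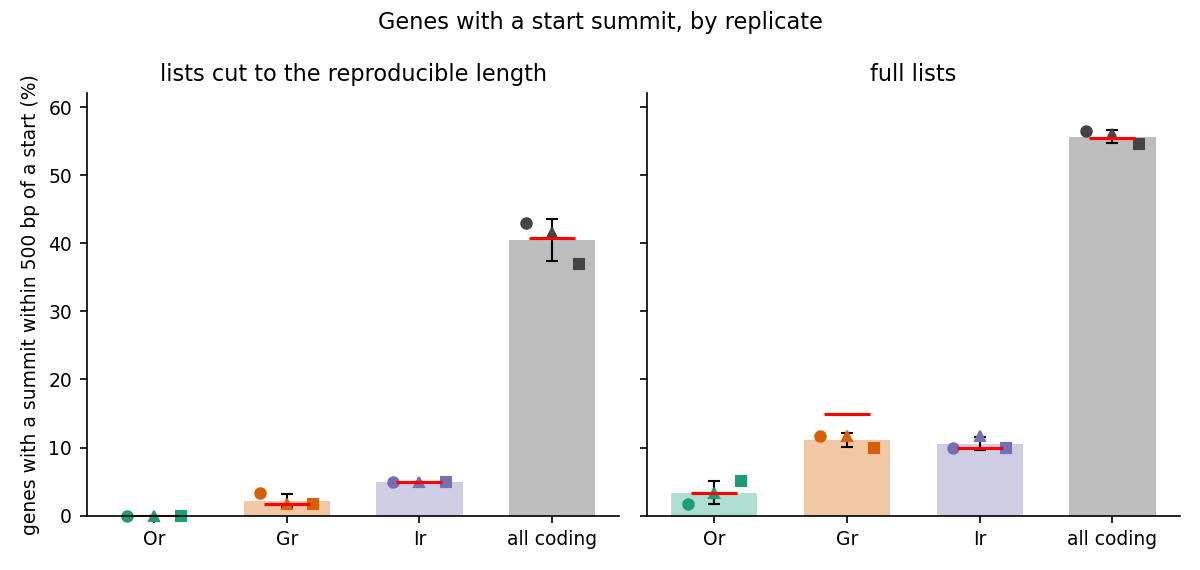
Share of genes with a summit within 500 bp of a start, in percent, for the 3 receptor families and all protein-coding genes, with lists cut to 10264 peaks on the left and full lists of 30000 on the right. Bars and error bars are the mean and SD over 3 replicates, the circle, triangle and square are replicates 1, 2 and 3, and the red line is the reproducible list (left) or the pooled list (right). Or, Gr and Ir genes lie at or below 15% in every list while all genes lie between 37.0% and 56.5%.

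The peak at Gr63a was the strongest of the 4 and stood near the middle of the reproducible list. It ranked 5266 of 10264 by the authors' signal value (chr3L:3896779-3896933). Its rank, as a percent of the list of 30000, was 18.0% in replicate 1, 16.3% in replicate 2 and 22.5% in replicate 3, a mean of 19.0% ± 3.19 (SD, n = 3). Gr63a and Lamtor4 are divergent, with 297 bp between their starts, and the summit was nearer to Lamtor4. The other subunit gene of the carbon dioxide receptor, Gr21a, had its nearest reproducible summit 38553 bp away, beside Clp.

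Among the 4 receptor genes with a reproducible start summit, Ir67c was the one whose own start was the nearest to the summit. The peak (chr3L:10434190-10434609) ranked 7423, and its summit lay 295 bp upstream of Ir67c. The next start was that of Ir67b, another ionotropic receptor gene, at 2417 bp. In replicates 1, 2 and 3 the peak stood at 21.8%, 25.4% and 28.7% of the list, a mean of 25.3% ± 3.44 (SD, n = 3).

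At Ir31a, an ionotropic receptor of the antenna, the summit lay 477 bp upstream of the receptor's start and 115 bp inside the neighbouring unit that starts both LSm-4 and CG17768. LSm-4 encodes an Sm-like protein of the ring that binds U6 RNA. The peak (chr2L:10404878-10405297) ranked 9154, and stood at 26.0%, 33.2% and 32.5% of the lists of replicates 1, 2 and 3. A weaker peak of the pooled list (rank 16963) had its summit 244 bp from Ir31a and 118 bp from the shared start of LSm-4 and CG17768. The reproducible summit was the one closest to the edge of the 500 bp window. The first receptor genes outside it were Gr32a at 570 bp and Or88a at 589 bp. The summits near them lay 383 bp from the start of Idua and 535 bp from that of CG12402.

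At Ir60e the summit (chr2R:24531352-24531771) lay 290 bp upstream of the receptor's start and 32 bp from the start of the divergent gene CG13585. It ranked 7180, and stood at 19.7%, 27.4% and 29.0% of the lists of replicates 1, 2 and 3. In 3 of the 4 cases the summit was thus nearer to the start of another gene, at 32 to 115 bp, than to the receptor's, at 259 to 477 bp. All 4 peaks ranked below 5132, the midpoint of the reproducible list, with a median rank of 7302, against a median of 3808 over the strongest start peaks of the 5688 protein-coding genes with a reproducible start summit.

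**Figure D2:**
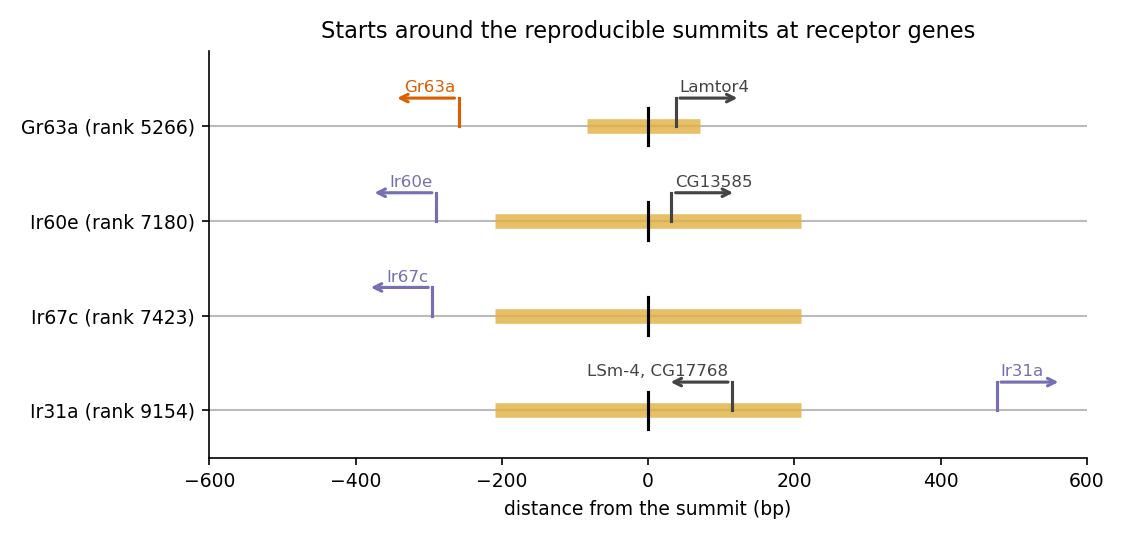
Positions of starts around the 4 reproducible summits within 500 bp of a receptor start, as distance from the summit in bp. The black tick is the summit, the yellow bar the peak, coloured arrows the receptor starts with their direction, and dark arrows the starts of other genes in view. At Gr63a, Ir60e and Ir31a the other gene starts 32 to 115 bp from the summit, and at Ir67c there is no other start in view.

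The count depended on the window. Within 200 bp of a start, 0 of 179 receptor genes had a reproducible summit, against 31.8% of all genes. Within 1000 bp there were 7, against 45.1%, and the genes added were Gr32a, Or88a and Or9a. The median distance from a start to the nearest reproducible summit was 15045 bp for Or, 8282 bp for Gr and 9494 bp for Ir genes, against 1761 bp for all protein-coding genes. The median over the replicates' strongest peaks was 14406 bp ± 1144 for Or, 8407 bp ± 1312 for Gr and 9361 bp ± 883 for Ir genes, against 1777 bp ± 407 for all (SD, n = 3). The median of Or genes exceeded those of Gr and Ir genes by more than these SDs, while those of Gr and Ir genes did not differ beyond them. The SDs cover the replicate lists alone. Over single genes the families overlapped widely in the reproducible list, with quartiles of 8755 and 29891 bp for Or, 3121 and 25305 bp for Gr, and 4906 and 18424 bp for Ir genes. At 10 kb, 30.5% of Or, 55.0% of Gr and 51.7% of Ir genes had a summit, against 77.7% of all genes. At 20 kb the order was not kept, with 67.8%, 66.7% and 78.3%, against 87.9%. At 50 kb the shares were 93.2%, 93.3% and 91.7%, against 96.3%. Or35a lay farthest from a summit, at 123534 bp.

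**Figure D3:**
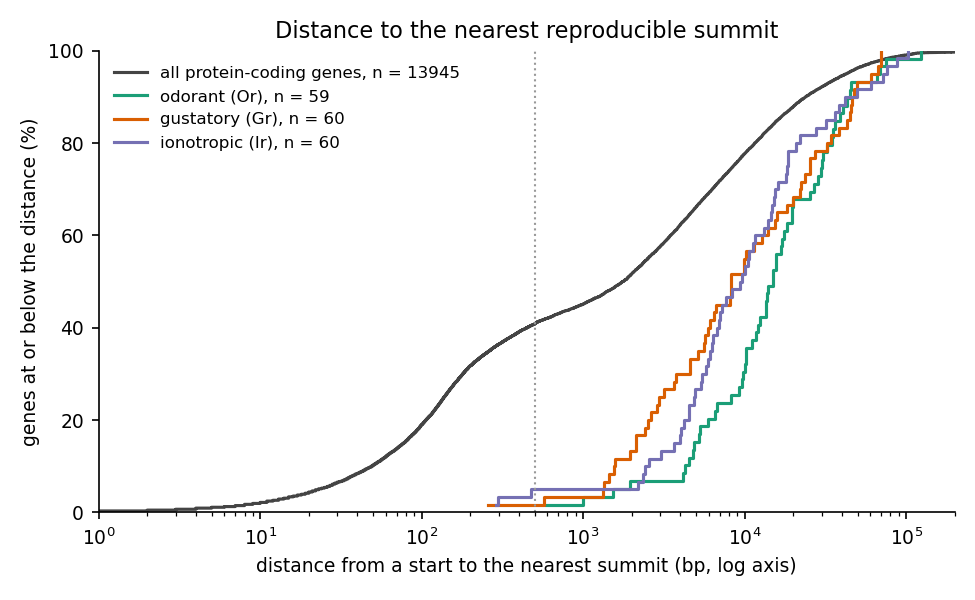
Cumulative share of genes, in percent, against the distance from a start to the nearest reproducible summit, in bp on a log axis, for the 3 families and all protein-coding genes. The dotted line marks 500 bp, where all genes stand at 40.8% and the Or, Gr and Ir families at 0%, 1.67% and 5%.

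The nearest summit to a receptor gene mostly lay closest to a gene that is not among the 179. The start nearest to it belonged to a gene outside the 179 for 165 receptor genes, to another of the 179 for 6, and to the receptor itself for 8. Genes outside the 179 include relatives by name, namely Grl36a for Gr36a, Gr36b and Gr36c, and Or98P for Or98a. The share whose own start was the nearest was 4.47% of receptor genes, against 37.6% of all protein-coding genes. Among genes without a start summit it was 7 of 175 receptors (4%), against 11.9% of all such genes. The difference was not tested. These 8 were Ir67c, Gr89a, Gr93a, Gr93b, Gr93d, Gr98d, Ir94a and Or65a, at 295 to 4919 bp. Gr89a lay 1348 bp from a peak of rank 1563. Ir93a, a receptor of cooling and dry air, is next to RpS30, whose start peak is among the strongest of all at rank 14, yet the start of Ir93a lay 9369 bp from that summit. Start summits were also few at the genes next to receptors. Of the 247 nearest protein-coding genes on either side of a receptor that are not among the 179, 64 had a start summit (25.9%, exact interval 20.6 to 31.8), against 40.8% of all. Over the replicates the share was 26.7% ± 3.21 (SD, n = 3).

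Divergent neighbours were fewer among receptor genes than among all genes, and the share with a summit was lower than that of all genes both with and without such a neighbour. An opposite-strand protein-coding start within 1000 bp upstream was present at 26 receptor genes (14.5%) and at 36.2% of all genes. Of these 26, 3 had a start summit, against 69.1% of all genes with such a neighbour. Of the other 153 receptor genes, 1 had one, against 24.7% of all genes without such a neighbour. In 6 of the 26 the neighbour was itself a receptor gene (Gr58a with Gr58b, Gr59e with Gr59f and Ir7f with Ir7g), and these lay 4232 to 69730 bp from a reproducible summit. In the other 20, the neighbour had a summit at any of its annotated starts, not always the divergent one, in 6 cases. At Gr63a and Ir60e, with 297 and 322 bp between the starts, the neighbour's summit was within 500 bp of the receptor too. At Ir31a, 362 bp from the start of CG17768, a summit 115 bp from that start was also within 500 bp. The summit counted for CG17768 was a different one, 3 bp from another of its starts. At Gr94a, Gr32a and Gr59a the neighbour's summit was not within 500 bp of the receptor. The summit counted for p53, the stress response factor next to Gr94a, lay 2412 bp from the start of Gr94a. It was 19 bp from another start of p53 than the divergent one, which lies 459 bp from Gr94a.

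By role, the receptors named here had no start summit in the reproducible list, Gr63a excepted. At the 2.23% of all receptor genes, a count of 0 in groups of 3 to 13 genes does not set a role apart, and the share of all protein-coding genes was 40.8%. The co-receptor genes lay at 2558 bp for Ir25a, 7071 bp for Ir8a and 72020 bp for Ir76b. The start of Orco lay 777 bp from a summit of rank 3722 and thus also outside the window. The summit near Ir25a, of rank 171, was 141 bp from the start of tank.

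Of the 9 sugar receptor genes, 0 had a start summit, at distances of 1445 to 9965 bp. Gr5a, a trehalose receptor, lay 1445 bp from a summit whose nearest start was that of Tre1. Gr43a, a fructose sensor, lay 2846 bp from one beside Glo1. The array of Gr64a to Gr64f, which spans 10.8 kb, held 0 summits of the reproducible and 0 of the pooled list.

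Of the 7 bitter and pheromone receptor genes, 0 had a start summit, at 570 bp for Gr32a to 34202 bp for Gr68a. Gr66a, a widely used marker of bitter neurons, lay 2119 bp from a summit beside BI-1.

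The 10 named odorant receptor genes lay at 8267 to 43139 bp. These included Or47b and Or67d, which detect fly pheromones, at 13524 and 10214 bp, Or56a, the geosmin receptor, at 9639 bp, and Or22a, a receptor of fruit esters, at 28460 bp. The 13 named ionotropic receptor genes lay at 6355 bp (Ir92a, an ammonia receptor) to 103086 bp (Ir20a). Ir84a, a receptor of aromatic food odours, lay at 60218 bp.

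Lowering the strength required added a small number of receptor genes, at weak peaks. In the pooled list in full, 17 of 179 had a start summit (9.50%, exact interval 5.63 to 14.8), against 55.4% of all genes, namely 2 Or, 9 Gr and 6 Ir genes. Inside the gene there were 15, against 38.9%. In the full lists, replicate 1 had 14 receptor genes (56.5% of all genes), replicate 2 had 16 (56.0%) and replicate 3 had 15 (54.5%). A start summit in all 3 full lists was found at 10 receptor genes, against 49.5% of all genes, and 156 of the 179 had none in any replicate. The family shares were 3.39% ± 1.69 for Or, 11.1% ± 0.962 for Gr and 10.6% ± 0.962 for Ir genes (SD, n = 3).

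The 13 genes added by the pooled list lay at its weak end, with a median rank of 21166 of 30000. The first was Gr97a, at rank 10403 just beyond the reproducible list, with a summit 384 bp from its start and 61 bp from that of its divergent neighbour CG5521. It stood at 31.3%, 40.7% and 37.1% of the lists of replicates 1, 2 and 3. At Gr61a, a sugar receptor gene, the summit (rank 22508) was nearer to JMJD5. In the other 11 the receptor's own start was the nearest to its strongest summit. These were Gr77a, Ir21a, Gr39a, Ir76a, Gr47b, Ir85a, Or67c, Or45b, Gr89a, Gr59a and Gr32a. Of the 13 strongest summits, 4 were matched within 250 bp in all 3 replicates (Gr97a, Gr77a, Ir21a and Ir76a), 4 in 2 and 5 in 1. The Or45b summit fell 3 bp from its start, at rank 22786, and was matched in replicates 2 and 3. Ir21a, a receptor of cooling, had its summit 235 bp downstream of the start, at rank 16146, and stood at 53.6%, 66.4% and 55.2% of the replicate lists.

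**Figure D4:**
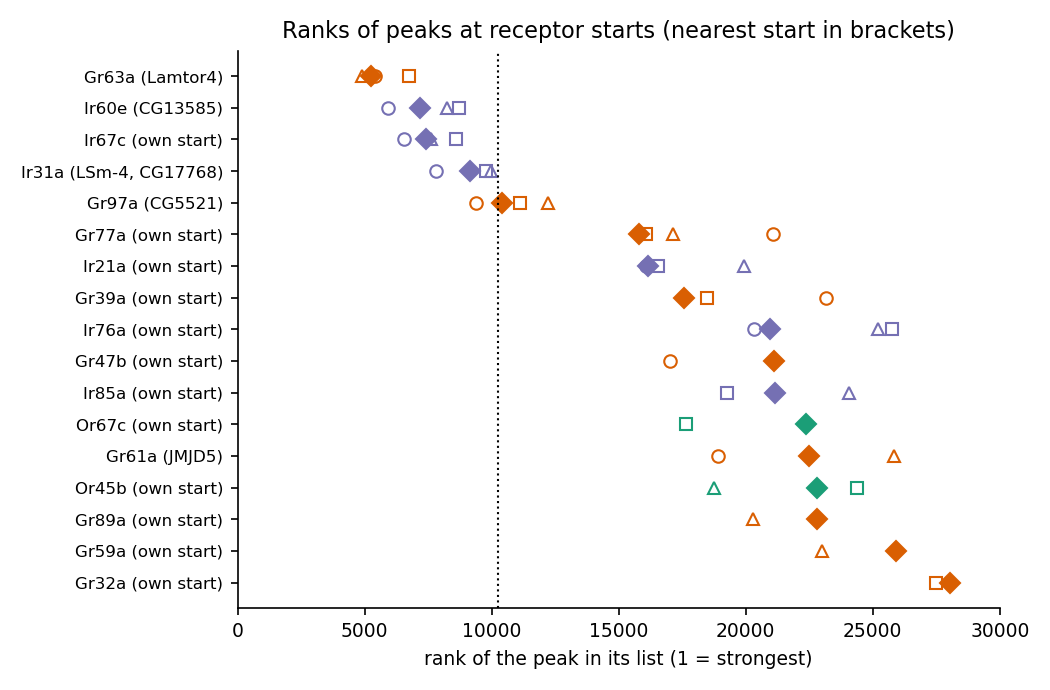
Rank of the strongest peak within 500 bp of a start, where 1 is the strongest, for the 17 receptor genes with a summit in the pooled list; the gene with the nearest start is in brackets. Filled diamonds are the pooled list, open circles, triangles and squares are matching peaks of replicates 1, 2 and 3 within 250 bp, and colours are the families (green Or, orange Gr, purple Ir). The dotted line is the end of the reproducible list at rank 10264, which 4 genes pass.

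The core word of Pho was present in many receptor promoters, and words of general promoter factors in at most 1. From 250 bases before to 50 after the most upstream start, on both strands, GCCAT was in 92 of 179 receptor promoters (51.4%), against 41.2% of all promoters. It was in 40.2% of promoters of genes with a start summit and 41.9% of those without one. Its reverse reading can fall on a start codon. GCCATNTT was in 6 (3.35%), those of Gr2a, Gr43a, Gr66a, Ir94a, Or67d and Or69a, against 5.94% of all. The DNA replication-related element TATCGATA was in 1 (0.559%), that of Gr68a, against 9.36% of all. It was in 17.2% of genes with a start summit and 3.96% of genes without one. Motif 1 was in 0, against 7.70% of all, 14.7% of genes with a start summit and 2.91% of genes without one. The median share of G and C was 39.3% in receptor promoters and 38.0% in all. A word in a promoter is a description of the sequence and not a bound site.

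**Figure D5:**
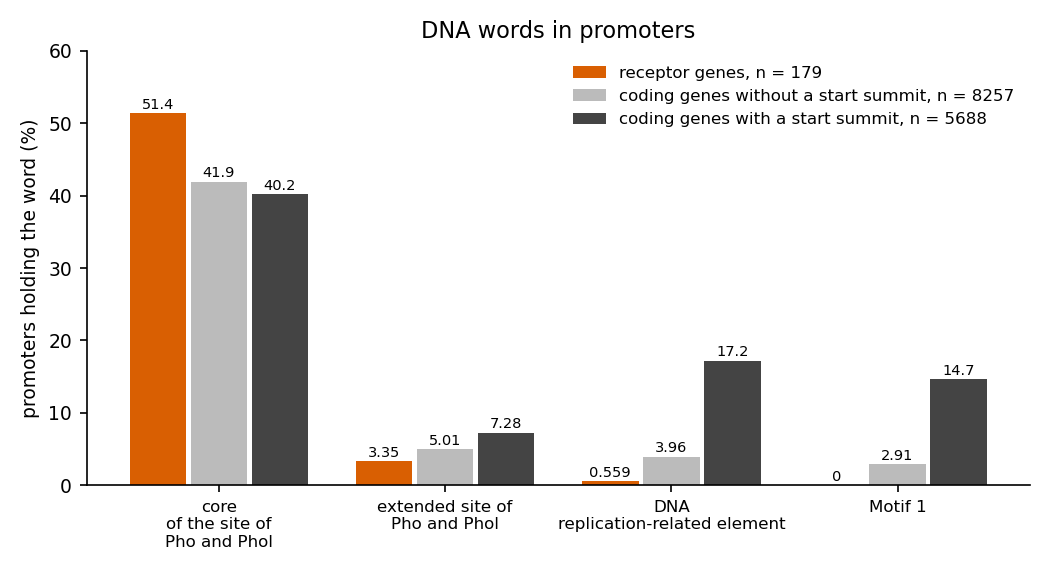
Share of promoters, in percent, that hold each of 4 DNA words on either strand, for the 179 receptor genes, the 8257 protein-coding genes without a reproducible start summit and the 5688 with one. The core word of Pho stands at 51.4% in receptor genes, while the DNA replication-related element and Motif 1 stand at 0.559% and 0%.

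Start summits were also counted at other genes of the chemical senses, from lists named here for comparison, beside the 40.8% of all genes. The intervals of odorant-binding protein, CheA and CheB, and glutamate receptor genes lay below that share. Those of the other lists included it. Of 51 odorant-binding protein genes, 3 had one (5.88%, exact interval 1.23 to 16.2), namely Obp83cd at 138 bp, Obp83g at 245 bp and Obp99b at 252 bp. Of 20 CheA and CheB genes 0 had one, and of the contact chemosensory channel genes ppk23, ppk25 and ppk29 0 had one. Of 12 ionotropic glutamate receptor genes, the relatives of the Ir family, 1 had one, GluRIIB at 378 bp. Of 7 photoreceptor opsin genes, which serve another sense, 1 had one, Rh5 at 461 bp. Transcription and chromatin factors of receptor choice and the olfactory lineage had a start summit in 7 of 26 (26.9%, exact interval 11.6 to 47.8). This interval includes the 40.8% of all genes and overlaps those of the other lists. Differences between the lists were not tested. These 7 were E2f2, mip120, mip130, Su(var)3-9, Xbp1, zf30C and ey. Factors without one lay 571 bp (salm) to 52427 bp (onecut) from a reproducible summit, among them Hr51 at 606 bp and Hr38 at 659 bp. For acj6, lz, amos and ato these distances were 5081, 1545, 6110 and 8157 bp. In the pooled list, 13 of the 26 factors had a start summit, against 55.4% of all genes. They included onecut at 12 bp and vvl at 186 bp. Of the 51 odorant-binding protein genes, 6 had a pooled start summit. E2f2, mip120 and mip130 encode members of a widely expressed repressor complex.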

How the data were processed

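Peak lists on dm6 were deposited, 5 in all. Per the deposited readme notes, 1 list was called for each replicate against a control, another from all 3 together, and the reproducible list keeps those pooled peaks under a cutoff of the irreproducible discovery rate (IDR). The control is not analysed here. For the aligner, the peak caller and the IDR cutoff, no name or value is given in the sources used here. The deposited signal value of a peak has no stated scale and served only to rank peaks within a list. Read depth is unknown. A check of the files showed that the 10264 reproducible peaks are the pooled list's strongest, and that 0 peaks were identical between replicates. In the replicate lists, 80.8% to 84.4% of summits sat at the middle of the peak, which limits their precision. The share was 77.0% in the pooled and 36.0% in the reproducible list. The reproducible summits at Ir60e, Ir67c and Ir31a and the pooled summit at Or45b sat at the middle of peaks 420 bp wide. Distances of a few bp to such summits are therefore not precise.

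Summits (start plus offset) were assigned to starts and genes of Ensembl release 115 (genome release 6) and are 1-based. Of the annotated start codons 99.9% read ATG in the RefSeq sequence, 0 peaks ran past a chromosome end, and all 179 members overlapped their namesake in the RefSeq table. A start is that of any annotated transcript. Nearest starts were taken over all annotated genes except transposable elements. Peaks matched between lists when their summits lay within 250 bp. Intervals are exact Clopper-Pearson intervals (scipy 1.17.1, Python 3.11.15), and the limit for a count of 0 is 3 counts of the total. A simulation with 200 planted genes among 13945 returned all 200.

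The genes named are those with a summit at a start, receptors chosen by role, and the neighbours nearest to a summit. The members and lists were chosen with earlier results of these data known. Chosen after seeing these data were the split by divergent neighbours, the flanking genes, summits per length, the owner of the nearest summit over all genes, shares per chromosome, and the words TATCGATA and GGTCACAC. Alternatives were other windows, lists, starts, replicates left out and gene extents.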

Additional observations from a re-analysis of the deposited data

How the results depend on the processing

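The count of 4 receptor genes with a reproducible start summit remained 4 with the most upstream start alone and was 3 without the 45 members that overlap another protein-coding gene. It was 0 in the stronger 5132 peaks, 0 with a window of 200 bp, 7 with 1000 bp, 17 in the pooled list in full and 1 with each summit given to its nearest start alone. Requiring the strongest peaks of both other replicates, with each replicate left out in turn, gave 4 to 4. The count of 0 with a summit inside the gene was 15 in the pooled list in full, 0 to 0 with a replicate left out and 0 under the other alternatives run. The mean replicate share of 2.42% was 8.38% in full lists, 0% with 200 bp, 3.91% with 1000 bp, and 2.23% to 2.51% with a replicate left out. The median distance over all members, 11047 bp, was 16927 bp in the stronger 5132 peaks, 6509 bp in the pooled list and 10258 to 10883 bp with a replicate left out. Summits nearer to another gene numbered 3 of 4, and 5 of 17 in the pooled list. The cause of these changes beyond the lists and windows themselves was not tested. The replicate ranks did not move when matches within 100 or 500 bp were used. No paired analysis was possible because there is a single group. Weak peaks of the full lists are limited by an unknown depth.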

Other observations

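The array of Gr93a to Gr93d, gustatory receptor genes on 3R, was unlike the other 4 arrays of at least 4 receptor genes in holding reproducible summits between its members. Arrays were joined where members lay within 10 kb of each other. Its 14.2 kb held 5 reproducible summits, and those of Gr64a to Gr64f, Ir7b to Ir7g, Gr22a to Gr22e and Ir52a to Ir52d held 0. All 5 lay between Gr93a and Gr93b, inside no annotated gene, at 1986 to 5136 bp from the nearest start. The strongest (base 21837207) ranked 2817 and stood at 11.4%, 9.36% and 9.50% of the lists of replicates 1, 2 and 3. The array was singled out after its values were seen, and no test was made. Among shorter arrays, a reproducible summit of rank 1527 (base 24526157) also lay between Ir60d and Ir60e, 15 bp from the start of Brca2. A summit between members is thus not particular to Gr93a to Gr93d. Unlike the 5 summits there, the one between Ir60d and Ir60e lay beside the start of another gene.

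Members within 10 kb of another member and members alone had alike counts in the reproducible list, with 2 of 82 and 2 of 97. In the pooled list the counts were 3 and 14. Over all receptor genes the share was 2.23% in the reproducible and 9.50% in the pooled list. Over all protein-coding genes it was 40.8% and 55.4%. The difference between members in arrays and alone was not tested. No member on X had a start summit in the reproducible list (0 of 25) or in the pooled list (0), and on 3R there were 0 of 42 and 3. Of all protein-coding genes, 43.9% on X and 41.6% on 3R had a reproducible start summit, and 62.5% and 53.8% a pooled one. At the 2.23% of all receptor genes in the reproducible list, the counts of 0 in that list do not set either chromosome apart. In the pooled list the share of all receptor genes was 9.50%, and the count of 0 on X was not tested against it.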
